A study of Homo sapiens with 3 samples.

Results

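YBX1 peaks on ACC trinucleotide repeats were the autosomal peaks that the authors' annotation placed on a simple tandem repeat with the unit ACC, read over rotations and both strands, so that (TGG)n and (CCA)n are the written forms. Replicate 1 held 589 such peaks among 21546 autosomal peaks (2.73%), and replicate 2 held 498 among 16208 (3.07%). Among the listed peaks the rule used the annotation and chromosome alone and no measured value, though it was set with earlier results of these data known. The lists themselves hold only peaks that passed the authors' p-value cutoff and later filter. The study mapped YBX1 by ChIP-seq in HEL, an established human erythroleukaemia cell line that carries the JAK2 change V617F. The 3 libraries, from untreated cells crosslinked with formaldehyde, were 2 immunoprecipitations with a monoclonal antibody against YBX1 (EP2708Y), called replicates 1 and 2, and 1 input of sheared chromatin taken before antibody, against which both were called. Whether separate cultures were used is not stated in the labels, so the spread between replicates may be technical, and all values describe 1 cell line under 1 condition. The header of the replicate 2 list carries another replicate number than its label, and the label was followed.

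YBX1, also called YB-1, binds DNA and RNA through a cold-shock domain, and it takes part in transcription, splicing, and the packaging and translation of messenger RNA. On RNA it is known to prefer short pyrimidine-rich motifs with the core CAUC or CACC, and it was first described as a protein bound to the Y-box, an inverted CCAAT element of promoters. Simple tandem repeats are runs of a short unit copied head to tail, and their number of copies differs between people and between cell lines. The unit ACC reads TGG or GGT on the other strand, so such a tract holds CACC at every step of one strand.

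The tract sequences under the peaks are not printed, since coordinates of the lists are hg19 and no genome of that build was used here. To show how the unit looks where it meets a gene, 2 promoters from RefSeq (GRCh38.p14) are printed 5′ to 3′ on the strand of the gene, with every ACCACCACC or GGTGGTGGT in capitals. HPN-AS1, a non-coding gene antisense to the serine protease gene HPN, is shown because its promoter class held ACC repeat peaks in both replicates and its RefSeq promoter holds the motif. Of 14 genes named for ACC repeat peaks of the promoter class in either list, 4 were matched to RefSeq promoters. Only 1 of them, HPN-AS1, held the motif. SERPINA12, also of that class in both replicates, held it in 0 of 3 promoters. LGR4, a receptor for R-spondins, is shown as an example of a long run of ACC before a start site, with 7 units printed. That run begins at the first base of the stretch, so its full length is not shown, and it was not ranked against all promoters. LGR4 was named for no peak in either list. The stretches are chr19:35106222-35106521, minus strand, and chr11:27472941-27473040, minus strand.
HPN-AS1: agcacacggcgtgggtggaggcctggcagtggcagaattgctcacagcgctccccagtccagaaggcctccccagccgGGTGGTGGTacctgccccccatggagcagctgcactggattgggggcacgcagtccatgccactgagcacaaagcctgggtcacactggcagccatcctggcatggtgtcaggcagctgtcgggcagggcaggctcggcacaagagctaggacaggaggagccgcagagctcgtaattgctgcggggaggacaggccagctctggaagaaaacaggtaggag
LGR4: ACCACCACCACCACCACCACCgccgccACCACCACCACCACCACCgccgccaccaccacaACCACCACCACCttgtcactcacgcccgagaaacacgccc

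The motif ACCACCACC, or GGTGGTGGT on the other strand, lay in 209 of 35116 RefSeq promoters of 300 bases (0.595%). The authors' lists named 3 of the 204 genes with that motif for a promoter peak of any label (1.47%), against 314 of all 27305 genes (1.15%). A match is only a stretch of letters, and the hg19 peaks could not be placed on these promoters.

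ACC repeat peaks had a median width of 81 bp in replicate 1 and 85 bp in replicate 2. The median was 70 bp and 69 bp for all autosomal peaks, and 82 bp and 77 bp for peaks on other simple repeats. ACC repeat peaks were thus somewhat wider than the typical peak, but wider than those on other simple repeats in replicate 2 alone. The median ACC repeat peak held 11 tags in replicate 1 and 10 in replicate 2, where all autosomal peaks held a median of 9 and 8. Peaks on other simple repeats held more, with medians of 13 and 11. A tag is one sequenced read position kept after duplicates were removed. The median fold enrichment, which is the authors' summit height as a ratio to the background around it, was 64.5 in replicate 1 (range 13.4 to 257) and 57.9 in replicate 2 (14.0 to 272). The same median over all autosomal peaks was 53.9 and 54.4. It was 92.4 and 80.6 for peaks on AGAT repeats and 66.7 and 54.4 for ATCC. For ACCATC it was 60.2 and 54.4, and for ATC 53.9 and 51.7. No peak in either list held fewer than 5 tags, and 18.3% of ACC repeat peaks in replicate 1 and 15.9% in replicate 2 stood at that minimum.

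A minority of peaks was much stronger. Peaks of more than 50 tags made up 14.6% of ACC repeat peaks in replicate 1 (95% Wilson interval 11.98 to 17.7) and 9.84% in replicate 2 (7.52 to 12.8), against 4.45% and 2.96% of all autosomal peaks. ACCATC peaks gave 16.0% and 11.6%, ATC peaks 14.5% and 5.70%, and ATCC peaks 7.23% and 3.72%. In all, the ACC repeat peaks held 18286 tags over 83508 bp in replicate 1 and 11411 tags over 61143 bp in replicate 2. These were 5.14% and 4.90% of the tags in autosomal peaks. Per 100 bp of peak that gave 21.9 and 18.7 tags, against 16.9 and 15.9 over all autosomal peaks. ACCATC peaks gave 21.2 and 19.2, AGAT peaks 20.8 and 18.9, ATC peaks 19.4 and 17.8, and ATCC peaks 16.6 and 14.9. The intervals cover counting error only, and peaks of one tract are not independent.

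Both written forms of the unit occurred, in near equal numbers. In replicate 1, 324 peaks lay on TGG (55.0%, 51.0 to 59.0) and 265 on CCA. In replicate 2, 262 lay on TGG (52.6%) and 236 on CCA. The written form depends on the strand of the reference genome, so the forms are a check on the annotation rather than on the protein. Their median folds in replicate 1 were 66.8 for TGG and 60.8 for CCA, and in replicate 2 they were 56.6 and 60.1, so the order differed between the replicates.

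A peak counted as found again when it shared at least 1 bp with any peak of the other replicate. In replicate 1, 373 of 589 ACC repeat peaks were found again (63.3%, 59.4 to 67.1), where 53.8% of all autosomal peaks of that list were. In replicate 2, 445 of 498 were found again (89.4%, 86.3 to 91.8), where 77.5% of all autosomal peaks were. The replicate 2 list was the shorter one, so its peaks were looked up among more peaks. Among the repeats most like ACC, the shares in replicates 1 and 2 were 84.6% and 95.6% for AGAT, 63.1% and 90.0% for ATCC, 68.1% and 90.2% for the hexanucleotide ACCATC, and 56.6% and 83.9% for ATC. ACC repeat peaks thus stood near ATCC and below AGAT.

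The share found again rose with the number of tags. Of 108 replicate 1 ACC repeat peaks at 5 tags, 25 were found again (23.1%). At 11 to 20 tags, 104 of 138 were found again (75.4%), as were all 74 at 21 to 50 tags and all 86 above 50. Peaks on other simple repeats gave 29.0% at 5 tags, 85.1% at 11 to 20 and 99.9% above 50, and peaks on no simple repeat gave 14.9%, 67.3% and 96.1%. In replicate 2, 57 of 79 ACC repeat peaks at 5 tags were found again (72.2%), as were all 75 at 21 to 50 tags and all 49 above 50. At 5 tags and at 11 to 20 tags in replicate 1, the ACC repeat share thus lay between that of the other simple repeats and that of peaks off simple repeats.

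**Figure D1:**
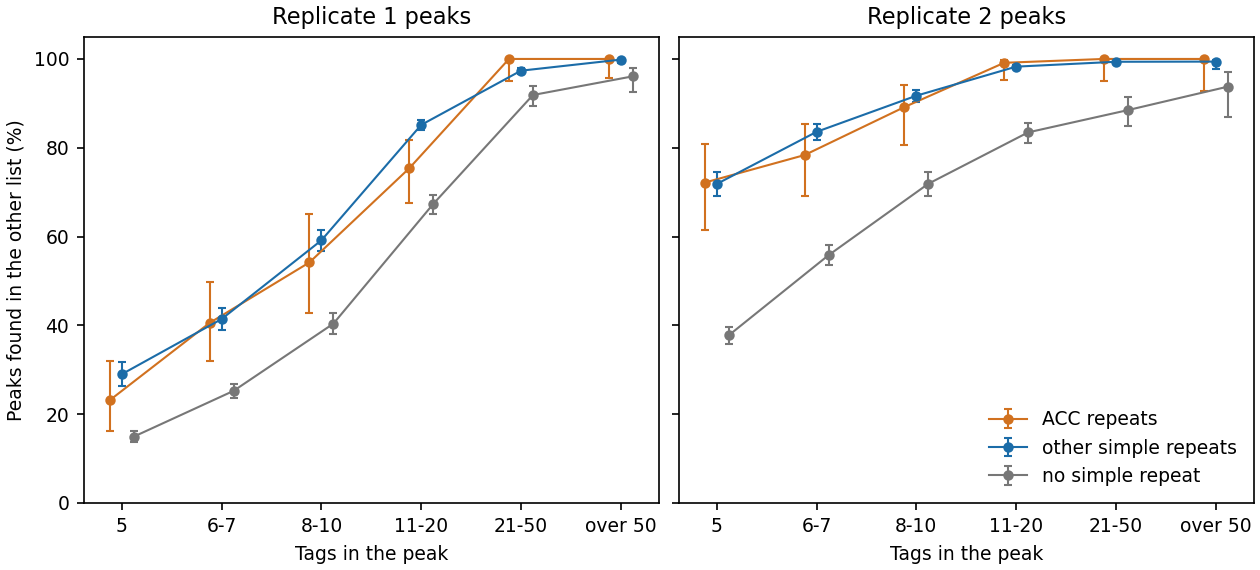
Share of peaks that overlapped a peak of the other list (percent, y axis) by the number of tags in the peak (x axis), for peaks on ACC repeats, on other simple repeats and on no simple repeat, with 95% Wilson intervals. In replicate 1 the ACC repeat share climbs from 23.1% at 5 tags to every peak above 20 tags.

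Many ACC repeat peaks were called where the input gave no local rise. The caller takes as background whichever is largest among the genome average and the input in windows of 1000 bp and 10000 bp. Where the genome average is used, folds come in whole steps, of 13.5 for replicate 1 and 13.6 for replicate 2. Within 0.006 of such a step lay 297 ACC repeat peaks in replicate 1 (50.4%) and 230 in replicate 2 (46.2%), against 36.1% and 34.4% of all autosomal peaks. AGAT peaks gave 42.0% and 40.2%, ATCC peaks 49.4% and 45.9%, and ACCATC peaks 31.7% and 28.3%. The peaks whose local background was above that level were found again in 69.2% of cases against 57.6% in replicate 1 and 91.4% against 87.0% in replicate 2. They also held more tags, with medians of 13 against 8 in replicate 1 and 11 against 9 in replicate 2.

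ACC repeat peaks often stood in rows. Those of either list within 500 bp of each other were joined, which gave 307 loci with a mean of 3.54 peaks over both lists and at most 25. The extent of the repeat itself was not read, so a locus is a group of peaks and need not be one tract. The mean was 1.83 for AGAT loci, 3.12 for ATCC loci and 2.45 for ACCATC loci built the same way. Of the 307 loci, 106 had a single peak, 65 had at least 5 and 22 had at least 10. The median locus spanned 211 bp and the longest 2617 bp, and 32 loci spanned more than 1000 bp (10.4%), against 0.305% of AGAT and 4.18% of ATCC loci. The 10 loci with most tags held 29.0% of the ACC repeat tags in replicate 1 and 27.8% in replicate 2.

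An ACC repeat peak was present in both replicates at 178 of the 307 loci (58.0%, 52.4 to 63.4), at 100 in replicate 1 alone and at 29 in replicate 2 alone. When a peak of any label over the locus counted, 211 loci were present in both (68.7%, 63.3 to 73.7). By the stricter count, 68.6% of 4919 AGAT loci, 64.9% of 2513 ATCC loci, 57.6% of 283 ACCATC loci and 50.5% of 192 ATC loci were present in both. Loci present in both spanned a median of 449 bp and loci present in one list 64 bp. A locus in both lists joins several peaks by definition, while 81 of the 100 loci in replicate 1 alone and 25 of the 29 in replicate 2 alone held a single peak. Part of this gap in span is thus built into the count.

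At the 178 loci in both lists the replicates gave like strengths. The highest fold of the locus differed by less than 2-fold between replicates at 171 of them (96.1%), with a median ratio of 1.25 and a highest ratio of 2.64. Over these loci, log2 fold in the replicates had a Pearson r of 0.816 and a Spearman rho of 0.813, where AGAT loci gave 0.611 and 0.582 and ATCC loci 0.661 and 0.640. These correlations describe loci that passed the threshold in both lists, and both lists share the input library. Summed tags were a median of 50 over 290.5 bp in replicate 1 and 30.5 over 226 bp in replicate 2. Scaled to the tags kept, the log2 ratio of replicate 1 to replicate 2 had a median of 0.55 (quartiles 0.22 and 0.86) and was above 0 at 148 loci (83.1%). The same median was 0.35 for AGAT and 0.61 for ATCC loci, so the excess of tags in replicate 1 was also present on the other repeats.

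**Figure D2:**
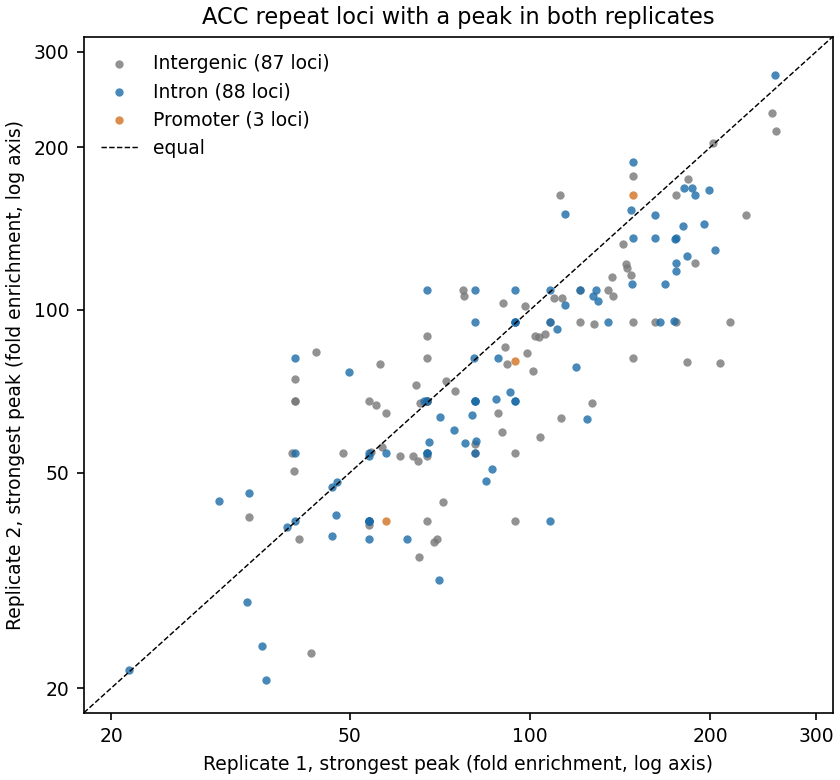
Highest fold enrichment of an ACC repeat peak at each of the 178 loci present in both lists, replicate 1 on the x axis and replicate 2 on the y axis, both log axes, each point one locus coloured by its position (intergenic, intron or promoter). Points keep to the diagonal, with 171 of 178 within 2-fold of it.

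Loci in both lists were ranked by the lower of the replicates' highest folds. The strongest locus by this rank lay in an intron of PRKCA, the gene of protein kinase C alpha, at chr17:64794466-64795834 (hg19, as for all peaks here). Its highest fold was 256 in replicate 1 and 272 in replicate 2, with 481 and 370 tags over 3 peaks in each list. An intergenic locus at chr2:113103767-113104765, named for ZC3H8, a zinc finger gene, ZC3H6 and the RGPD5 and RGPD8 copies, followed with folds of 254 and 232 and with 308 and 236 tags. RGPD genes are near-identical copies, so tags there may be placed with less certainty. All ACC repeat loci lie on tandem repeats and the tag size was 36 bp, so placement may be uncertain at the other loci too. This was not tested. Next came a locus at chr1:31128073-31128624 whose named genes include MATN1, a cartilage matrix protein, and LAPTM5, a lysosomal membrane protein of blood cells, with folds of 257 and 214. All these folds lay above 200 in both libraries. Over the 178 loci in both lists, the highest fold of a locus had a median of 88.4 in replicate 1 and 77.1 in replicate 2.

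Of the 12 strongest loci, 5 others were named for genes as follows, and the names rest on position only. NRXN3, a presynaptic adhesion protein, had an intronic locus at chr14:79723686-79723966 with folds of 187 and 168 and with 85 and 59 tags. PPP2R2C, a regulatory subunit of protein phosphatase 2A, had one at chr4:6513076-6514468 with folds of 181 and 168 and with 436 and 455 tags. At that locus replicate 2 held the larger number of tags, unlike at NRXN3. CDHR2, a protocadherin of the intestinal brush border, had 7 and 6 peaks at chr5:176018509-176019624 with folds of 189 and 163. The intergenic locus at chr10:105010623-105011146 near INA, a neuronal intermediate filament, gave 183 and 174. The locus at chr22:20149667-20152051 near DGCR8, the partner of Drosha in microRNA processing, gave 229 and 150, the widest gap among the 12.

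A further 3 of the 12 were an intergenic locus with no named gene at chr14:97602046-97602920 (202 and 204), a locus near KDM8, a JmjC-domain enzyme, at chr16:27150029-27150731 (175 and 163) and one in an intron of GALR1, a galanin receptor gene, at chr18:74964786-74965035 (162 and 150). Across all 178 loci the lower of the replicates' folds had a median of 68, a minimum of 20.7 and reached at least 100 at 47 loci. The 12 were chosen for this value, so it is given as a description.

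The 5 loci with most peaks held rows of 8 to 16 in each list. The locus near GATM, the first enzyme of creatine synthesis, at chr15:45753600-45756216 held 9 peaks in replicate 1 and 16 in replicate 2, with 396 and 296 tags. MARCH10, a ubiquitin ligase gene, held 12 and 13 peaks in an intron at chr17:60869840-60871679, with 223 and 152 tags. MPPED1, a metallophosphoesterase gene, held 13 and 10 at chr22:43891013-43892966, with 190 and 120 tags, and CHCHD6, a mitochondrial cristae protein gene, 12 and 8 at chr3:126580597-126582947, with 125 and 56 tags. DGCR8 belonged to this set too, with 10 and 12 peaks. In the matched ACC repeat peaks the summits lay a median of 20 bp apart in replicate 1 and 28 bp in replicate 2, against 10 bp in both for AGAT peaks.

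**Figure D3:**
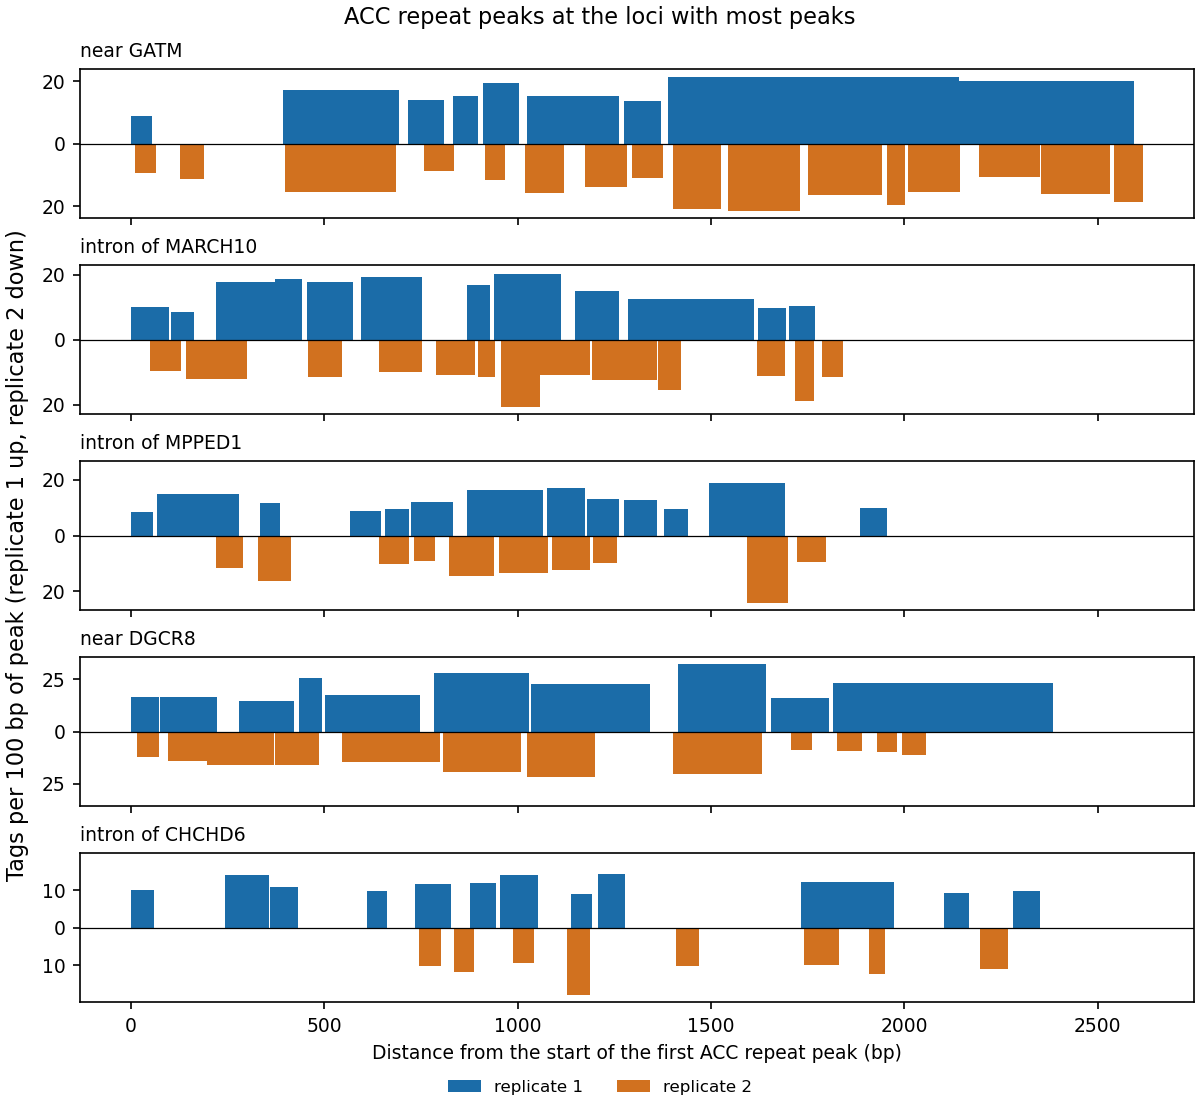
Tags per 100 bp of each ACC repeat peak (y axis, replicate 1 up and replicate 2 down) against distance from the start of the first peak (x axis, bp), at the 5 loci with most ACC repeat peaks. The locus near GATM carries 9 blocks above and 16 below the line.

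Some of the largest differences in tags between the replicates did not hold when peaks of every label were counted. SLC35F3, a solute carrier gene, had 48 tags in replicate 1 and 9 in replicate 2, and GABRR3, a GABA receptor subunit gene, had 26 and 7. Counting peaks of every label over the locus, these became 55 and 9, and 33 and 7, so the gap stayed. A locus near EMR1, an adhesion receptor gene of macrophages, went from 65 and 16 to 65 and 27. In the other direction, RBFOX3, a neuronal splicing factor gene, had 5 and 34 tags, and 10 and 34 with every label. Near BUB3, a spindle checkpoint gene, 102 and 270 became 557 and 309, and near FLJ21408, 8 and 24 became 113 and 107, so the direction at those 2 loci turned. Over all 178 loci the median log2 ratio with every label was 0.52, and 158 loci (88.8%) lay above 0.

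The 3 loci of highest fold with an ACC label in replicate 1 alone, and the 3 in replicate 2 alone, all had a peak of another label, or of none, in the other list. A locus near LINC00322 at chr21:44755811-44757610 held 1197 tags at a fold of 135 in replicate 1, the most tags of any ACC repeat peak, while replicate 2 had 944 tags over 2 peaks with no repeat label, the stronger of them at a fold of 108. LINC01019 (chr5:3445682-3447039) held 396 tags in replicate 1 and 301 over 6 peaks in replicate 2, of which 5 were labelled ACCATC. LINC01107 (chr2:239429391-239430059) held 126 and, likewise labelled ACCATC, 122. In replicate 2 alone, a locus near ABL1 at chr9:133833983-133834313 held 66 tags where replicate 1 had 102 on a HAL1-2a_MD peak. Near LOC101928880 (chr16:88226530-88226958) 132 tags met 202 over 2 ATC peaks, and near MIR4261 (chr2:10330093-10330495) 71 met 148 over an ACCATC peak and a HAL1-2a_MD peak. These 6 loci had peaks in both libraries and a changed label in one.

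Loci with no peak of any label in the other list had few tags in their strongest peak. In replicate 1, 81 of the 100 loci had none, and their strongest peak held a median of 6 tags, with a highest of 20. In replicate 2, 15 of the 29 had none, with a median of 6 tags and a highest of 12. The highest fold among them was 108 in replicate 1 and 68.0 in replicate 2. Such tag counts are near 5, the lowest count in either list, and whether the libraries differ at these loci was not tested. Peak by peak, 53.5% of replicate 1 ACC repeat peaks met only ACC repeat peaks in replicate 2, 4.75% met only other labels and 36.7% met none. In replicate 2 the shares were 76.9%, 7.43% and 10.6%.

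Of the 307 loci, 193 had a peak of another label within 500 bp (62.9%), as did 64.9% of AGAT loci, and HAL1-2a_MD was the most frequent name among these neighbours of ACC repeat loci. HAL1-2a_MD, an interspersed element related to L1, had a peak within 500 bp of 121 of the 307 loci (39.4%, 34.1 to 45.0), peaks with no repeat label stood near 90 (29.3%), and ACCATC had one near 65 (21.2%, 17.0 to 26.1). ATC had one near 7 (2.28%), while ATCC and AGAT had one near 0 of 307, which allows a share of up to 1.24%. Peak by peak within a list, 182 of 589 ACC repeat peaks in replicate 1 (30.9%, 27.3 to 34.7) and 122 of 498 in replicate 2 (24.5%, 20.9 to 28.5) had a HAL1-2a_MD peak within 500 bp. Of all autosomal peaks not labelled HAL1-2a_MD, the ACC repeat peaks included, 2.91% and 2.82% did.

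The same neighbour stood by related units and not by the tetranucleotides. HAL1-2a_MD peaks lay near 54.1% of ACCATC loci and 54.2% of ATC loci, but near 1 of 4919 AGAT loci and 3 of 2513 ATCC loci. From the other side, 20.8% of the 739 HAL1-2a_MD peaks in replicate 1 and 20.1% of the 557 in replicate 2 had an ACC repeat peak near. ACC repeat loci with that neighbour were present in both replicates in 63.6% of cases (54.8 to 71.7) and those without it in 54.3% (47.1 to 61.3), and these intervals overlap.

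**Figure D4:**
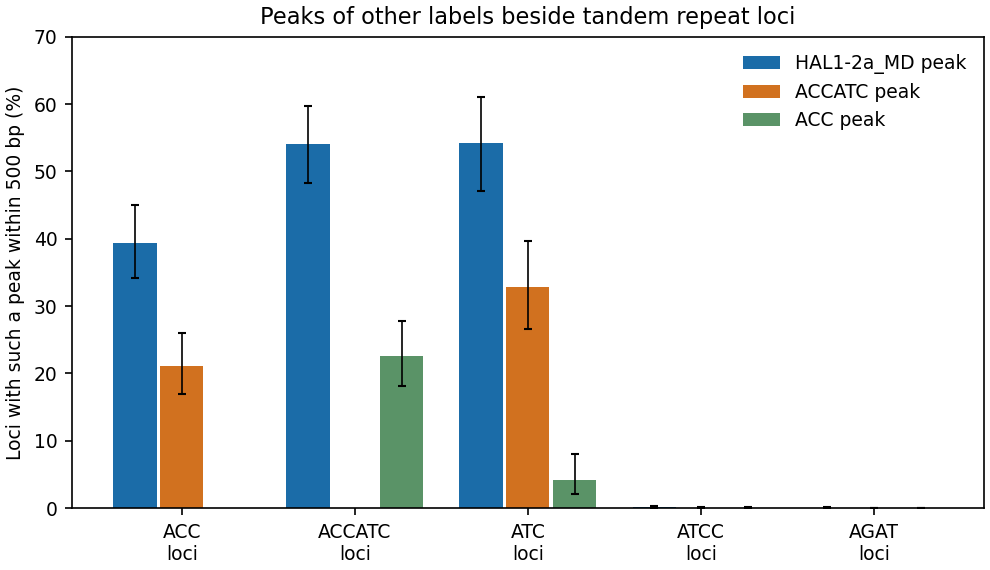
Share of loci (percent, y axis) with a peak of another label within 500 bp, by the label of the neighbour, for loci of each repeat unit, with 95% Wilson intervals. HAL1-2a_MD stands near 39.4% of ACC repeat loci, 54.1% of ACCATC loci and under 1% of AGAT and ATCC loci.

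ACC repeat peaks lay in introns and between genes. Introns held 306 of the replicate 1 peaks (52.0%) and 241 of the replicate 2 peaks (48.4%), against 38.3% and 37.7% of all autosomal peaks and 29.9% of AGAT peaks in both. ATCC peaks gave 48.3% and 49.7% and ACCATC peaks 43.1% and 49.4%, while ATC peaks, at 37.9% and 37.3%, stood near all autosomal peaks. Intergenic sequence held 269 (45.7%) and 245 (49.2%), and the promoter class held 14 (2.38%) and 12 (2.41%), where 3.32% and 3.45% of all peaks lay. Exons held 0 of 589 and 0 of 498, which allows shares of up to 0.648% and 0.765% by the Wilson interval. Exons held 0.951% and 0.913% of all autosomal peaks but 0.0495% and 0.0793% of peaks on other simple repeats. By locus, 151 were intronic (49.2%), 146 intergenic and 10 in the promoter class.

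Within introns, more ACC repeat peaks read TGG on the coding strand than on the template strand, while over loci the interval included an even split. The strand of the gene was taken from RefSeq by symbol, which gave it for 229 of the 306 intronic peaks in replicate 1 and 184 of the 241 in replicate 2. TGG lay on the coding strand in 60.7% (54.2 to 66.8) and 65.2% (58.1 to 71.7) of these. Over loci, where each locus counts once, it was 62 of 110 (56.4%, 47.0 to 65.3). ATC loci gave 75.5% (62.4 to 85.1) for their purine-rich form, and ATCC and AGAT loci 50.5% and 51.3%.

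Promoter peaks were few, and 3 loci of that class had ACC repeat peaks in both replicates. SERPINA12, which encodes the adipokine vaspin, had folds of 94.4 and 80.4 at chr14:94985981-94986460, with 33 and 30 tags. HPN-AS1, whose GRCh38 promoter is printed above, had 57.5 and 40.8 at chr19:35596293-35596980, with 18 and 11 tags. The other lay among the microRNA genes of the MIR376 cluster at chr14:101504516-101505031, with folds of 148 and 163 and with 87 and 74 tags. MicroRNAs named for that peak, from RefSeq, with the seed (bases 2 to 8) in capitals, are printed because miR-376a-3p and miR-376b-3p share a seed from which miR-376c-3p and miR-654-3p differ.
hsa-miR-376a-3p: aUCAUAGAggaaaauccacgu
hsa-miR-376b-3p: aUCAUAGAggaaaauccauguu
hsa-miR-376c-3p: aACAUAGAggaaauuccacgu
hsa-miR-654-3p: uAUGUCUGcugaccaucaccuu
These are the products of neighbouring genes and say nothing of their level in HEL cells, which was not measured. Promoter loci seen as ACC in one list alone were those of LOC101928880, MIR4261, EMR3, CES5AP1, INPP5J, IPCEF1 and TMEM55A.

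The gene lists were chosen with results of these data known, so their counts are descriptions. Over both lists of peaks, 10460 genes were named for an autosomal peak and 506 of them for an ACC repeat peak (4.84%). A gene named for many peaks has more occasions to be named for an ACC repeat, and the number of peaks per gene was not taken into account. In the list of cadherins, receptor phosphatases and synaptic adhesion, which also holds a few other neuronal genes, 31 of 33 genes were named for a peak of any label and 8 of those for an ACC repeat peak (25.8%), at 13 loci of which 7 were present in both replicates. One of the 8 was RBFOX3, the splicing factor gene described above. CSMD1, a large transmembrane protein gene, had intronic loci at chr8:2831295-2831661, with folds of 80.7 and 81.6, and at chr8:3509359-3509712, with 94.4 and 68.0. SORCS2, a sorting receptor gene, had one in both lists at chr4:7725807-7725928 with 13 and 16 tags. An intergenic locus named for NRXN2, a presynaptic adhesion gene, had 54 and 18 tags. PTPRN2, a receptor phosphatase gene of secretory granules, had 5 tags in each list at chr7:158233173-158233339 and a second locus with 22 tags in replicate 1, where replicate 2 had 46 tags on an ACCATC peak. CDH4, a cadherin gene, had 3 loci with an ACC label in one list alone. The first, of 16 tags in replicate 1, met 11 tags on an ACCATC peak in replicate 2, and the second, of 7 tags in replicate 2, met 13 tags with no repeat label in replicate 1. The third, of 12 tags in replicate 1, met no peak. CDH5, the cadherin of blood vessel lining, had 2 small peaks in replicate 1 alone, with 10 tags together.

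Of 23 haematopoietic transcription factors, 13 were named for any peak and 2 of those for an ACC repeat (15.4%). BCL11A, a repressor of fetal globin genes, had 5 and 7 peaks in an intron at chr2:60694134-60695298, with 208 and 146 tags and folds of 175 and 118. GATA2, a regulator of blood stem cells, was one of several genes named for an intergenic locus at chr3:128164183-128165095, with 2 and 6 peaks, 140 and 88 tags and folds of 90.3 and 103. Both loci were present in both replicates. The authors' lists name every neighbour of an intergenic peak, so a name does not assign the peak to a gene.

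Of 23 genes of protein kinase C and phosphoinositide signalling, 13 were named for any peak and 3 of those for an ACC repeat (23.1%). Beside PRKCA these were AKT1, a kinase downstream of phosphoinositides, named for an intergenic locus at chr14:105272937-105273153 (26 and 10 tags), and PRKCZ, an atypical protein kinase C. PRKCZ had 1 small peak in each list at different places, with 5 and 6 tags. Of 44 genes of JAK-STAT and ERK signalling, 19 were named for any peak and 1 of those, BRAF, for an ACC repeat (5.26%). BRAF, a kinase upstream of ERK, was named with other genes for an intergenic peak of 5 tags in replicate 1 alone. JAK2 was not named for an ACC repeat peak in either list.

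The share of peaks on ACC repeats varied between chromosomes in a like manner in both lists. It was highest on chromosome 17, at 8.51% of its peaks in replicate 1 and 10.6% in replicate 2, and on chromosome 22, at 7.48% and 9.39%. Chromosome 15 followed with 5.44% and 8.90%. It was lowest on chromosome 19, at 0.899% and 1.00%, and chromosome 9, at 0.946% and 0.876%. These shares count peaks, so loci with many peaks weigh heavily. Chromosome 15 had 8 loci and chromosome 22 had 13, while chromosome 2 had the most loci, 32. Within 5 Mb of the first or the last listed peak of their chromosome lay 85 of 307 ACC repeat loci (27.7%, 22.98 to 32.9), 28 at the first and 57 at the last. The same share was 7.28% for AGAT, 20.6% for ATCC, 38.2% for ACCATC and 42.7% for ATC loci.

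**Figure D5:**
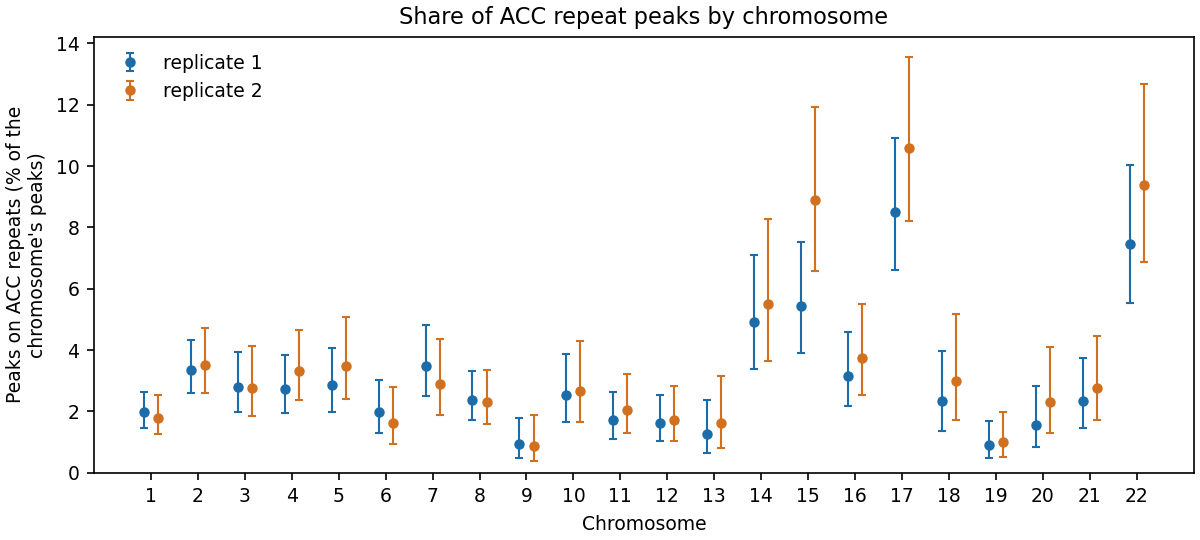
Share of the peaks of each autosome that lay on ACC repeats (percent, y axis) by chromosome (x axis), replicates 1 and 2 side by side. Chromosomes 17 and 22 stand highest in both lists and chromosomes 9 and 19 lowest.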

How the data were processed

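YBX1 ChIP-seq of 2 replicates and 1 input library from untreated HEL cells was used. Tools in the submitters' processing notes were Trimmomatic 0.36, bcl2fastq 02.14.01.07, MACS 1.4 and Bowtie2, and the build was hg19. Per the file headers, the authors called peaks per replicate, both against one input, with a p-value cutoff of 1e-05, a fragment shift of 20 bp, a tag size of 36 bp and 1 tag kept per position. Tags kept were 10010819 and 9926271, and 74780414 in the input. The filter applied to the lists afterwards was not given in the sources used here.

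The deposited lists give a count of tags per peak, the authors' fold enrichment as a ratio, a score that is the negative log10 of the p-value times 10, and positions in bp. The deposited false discovery rate, a percent, was 0 for all peaks. Fold and score are the authors' own values and served only to describe and rank peaks or to filter them. Low tag counts limit precision, since peaks start at 5 tags.

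From these, overlaps (at least 1 bp), loci (peaks joined within 500 bp) and 95% Wilson intervals, which cover counting error only, were computed with Python 3.11.15, pandas 2.3.3, numpy 2.4.6 and scipy 1.17.1, checked on simulated data. No test was run: the libraries form 1 group. Peaks on chromosome X, chromosome Y and alternative contigs were left out. RefSeq tables of GRCh38.p14 gave promoters, microRNAs and gene strands by symbol only.

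The members, gene lists and rules were chosen with earlier results of these data known. Loci were named when they were the 12 with the highest lower fold of both replicates, promoter loci present in both, the 5 with most peaks, the 3 highest and 3 lowest in tag ratio, the 3 strongest seen in 1 list, or on a gene list. Of the 12, 1 locus is not reported here. Alternatives were stricter thresholds, other overlap rules, other joining distances and single replicates.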

Additional observations from a re-analysis of the deposited data

How the results depend on the processing

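Under the alternatives, 31 of 52 values for the 9 main results stayed and 21 moved further. Staying meant within the error or, for the count of loci, within 1.5 times the main count. Of 72 values for the 12 strongest loci, 58 stayed and 14 moved. Part of this tally was fixed in advance. For medians and shares averaged over both lists, leaving out a replicate always counted as staying, since the error was the spread between the replicates. For each of the 12 loci, leaving out 1 replicate always stayed and leaving out the other always moved. Values of the peaks used for comparison were not recomputed under the alternatives. The share of replicate 1 ACC repeat peaks found again (63.3%) was 40.6% with a reciprocal overlap of at least 50%, 58.6% when only ACC repeat peaks of the other list counted, 85.4% within 500 bp and 58.3% without the 22 loci of at least 10 peaks. The replicate 2 share (89.4%) was 94.2% at 10 or more tags, 49.6% with the reciprocal overlap, 81.9% against ACC repeat peaks only and 98.0% within 500 bp. Loci in both lists (178 of 307, 58.0%) were 290 of 624 (46.5%) when only touching peaks were joined, 176 of 291 (60.5%) when joined within 2000 bp, 138 of 208 (66.3%) with p at most 1e-10 and 123 of 187 (65.8%) at 10 or more tags. With p at most 1e-10, the median fold over both lists (61.2) was 79.3, the median tags (10.5) 16.5 and the promoter share (2.39%) 2.36%. At 10 or more tags the fold was 82.0, the tags 20, the intron share (50.2%) 46.7%, the promoter share 2.63% and the share at the genome-wide background (48.3%) 41.9%. Taken per locus, the fold was 67.7 and the tags 13.5. The share of loci with a HAL1-2a_MD neighbour (39.4%) was 17.3% when it had to touch the locus. From single replicates that share was 31.0% to 34.8%, the fold 57.9 to 64.5, the tags 10 to 11, the intron share 48.4% to 52.0%, the promoter share 2.38% to 2.41% and the background share 46.2% to 50.4%. The neighbour alternatives, the count without the 22 loci and the count of loci by any label were chosen after seeing the data. No paired analysis was possible because the libraries form 1 group and no test was run. Peaks of 5 to 10 tags limit what a missing peak shows, and the causes of these shifts were not tested.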

Other observations

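Outside the autosomes, each list held 2 ACC repeat peaks on chromosome X. One lay near PRKX, a cAMP-dependent protein kinase gene, with 182 tags in replicate 1 and 158 in replicate 2 and folds of 110 and 108. The other lay near ZCCHC16, with 9 and 5 tags and folds of 94.4 and 54.4. Among the loci with no peak of any label in the other list, EGFR, a growth factor receptor gene, had 13 tags over 2 peaks with a highest fold of 54.4 in replicate 2 at chr7:55234412-55234629. Replicate 1 had a separate peak of 5 tags in the same gene at chr7:55235173-55235217. BANP, a nuclear matrix protein gene, had 52 tags over 4 peaks with a highest fold of 80.9 in replicate 1 at chr16:88086946-88087689. These were chosen after their values were seen.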
